A study of Mus musculus with 12 samples.

Results

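Dab1, Stmn2, Ncam1, Ntn1, Enox1 and Zdhhc15 are 6 genes taken here as a neural group and followed in mouse embryonic stem cells across 2 doses of an MRE11 inhibitor. They were selected on measured values, for higher levels at 50 µM of inhibitor than in 2i alone or at 25 µM, and are 6 of the 56691 mouse gene IDs in the count tables. All 6 passed the filter on low counts and were among the 13230 genes tested. The differences between the 50 µM, 25 µM and 2i libraries took part in that choice, so they are given as a description with no test. The primed libraries took no part in it, and the 6 genes are tested against them alone. Those tests also use six-day libraries that took part in the choice. Lower calls in 2i and at 25 µM and higher calls at 50 µM therefore run with it.

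The cells were R1, an established male embryonic stem cell line of the 129/Sv strain, so all groups share 1 line. The groups were 6 days of 2i, 6 days of 2i with 25 µM inhibitor, 6 days of 2i with 50 µM inhibitor, and primed cells at day 0, with 3 libraries each. 2i is a pair of kinase inhibitors, against MEK and GSK3, that holds mouse stem cells in a naive state. MRE11 is a nuclease of the complex that senses DNA double-strand breaks, and the compound that inhibited it is not named in the sources used here. Primed is the labels' name for cells that had been grown in fetal bovine serum with LIF, a cytokine that sustains self-renewal, on gelatin. No serum and LIF culture of 6 days was analysed here, so the effects of 2i and of 6 days cannot be told apart, and the inhibitor was given only together with 2i.

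Reelin, netrin and adhesion signalling guide young neurons. Dab1 is the adaptor inside the cell that is phosphorylated when the secreted protein reelin binds its receptors Vldlr and Lrp8, and netrin-1, encoded by Ntn1, is a secreted cue read by receptors such as Dcc, Neo1 and the Unc5 proteins. Ncam1 is a cell surface adhesion molecule, Stmn2 (stathmin-2) binds tubulin and is needed for axon growth and repair, Enox1 is an oxidase of the cell surface that uses NADH, and Zdhhc15 attaches palmitate to proteins such as the synaptic scaffold PSD-95. The neuron markers that would show neurons in the culture are given further on.

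Sequence upstream of the start site was held for 3 of the 6 genes in the RefSeq table of build GRCm38.p6, as 4 windows of 250 bases. The windows of Enox1 and Zdhhc15 are shown because both genes were higher at 50 µM than in 2i while their upstream sequences are unlike each other. Each is printed 5′ to 3′ on the gene's own strand and ends at the base before the start site, and capitals mark CpG dinucleotides.
Enox1, chr14:77156513-77156762, plus strand: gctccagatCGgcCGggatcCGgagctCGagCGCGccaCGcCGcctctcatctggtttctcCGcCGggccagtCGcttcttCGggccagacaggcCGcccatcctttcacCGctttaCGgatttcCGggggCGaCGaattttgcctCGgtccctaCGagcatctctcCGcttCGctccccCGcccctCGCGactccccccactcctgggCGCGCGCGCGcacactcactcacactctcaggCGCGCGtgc
Zdhhc15, chrX:104671065-104671314, minus strand: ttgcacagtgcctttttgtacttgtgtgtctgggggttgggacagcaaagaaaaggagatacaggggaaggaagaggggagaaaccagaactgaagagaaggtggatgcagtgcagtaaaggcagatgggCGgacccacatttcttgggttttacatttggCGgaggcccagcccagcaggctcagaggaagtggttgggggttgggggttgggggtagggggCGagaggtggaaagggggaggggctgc
The Enox1 window held 33 CpG and the Zdhhc15 window 3 CpG, against a median of 6 and quartiles of 2 and 16 over 32841 windows of the same length. The 2 windows of Dab1, which overlap annotated exons and are not printed, held 10 and 40 CpG. Of 5 short motifs searched on both strands, the GC box GGGCGG occurred 2 times upstream of Enox1, 1 time upstream of Zdhhc15 and 1 time in the second Dab1 window, and 32.7% of all windows held it. The REST half-site GGACAG occurred 1 time, upstream of Zdhhc15, and 18.7% of all windows held it. The 4 windows held no CAGCTG, an E-box of neural bHLH factors that 13% of all windows held. They also held no CTTTGAT, the TCF and LEF core that 3.21% of all windows held, and no TGACGTCA, the cyclic AMP response element that 1.55% held. These matches describe letters in a window and were not tested as binding sites.

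The libraries held between 5894561 and 7060126 counts. Replicate 1 stood apart from replicates 2 and 3: over genes, chi-square per degree of freedom was 9.78 to 13 for the 8 pairs of replicates with replicate 1 and 2.63 to 7.28 for the other 4 pairs. The values of the 6 genes are therefore also given without replicate 1 where they moved by more than the spread between replicates. Levels are CPM, counts normalised for library size with TMM factors. Each count comes from the 3′ end of a transcript and no length adjustment was made. Levels of the 6 genes are not compared with each other, and marker lists are also described by sums of CPM. Because these are bulk samples, fewer cells that express a gene and less RNA per cell cannot be told apart. Whether libraries within a group were independent cultures is not stated in the labels, so the p-values may measure technical spread alone. Of the stem cell marker genes, Sox2 stood at 508 to 627 CPM and Nanog at 494 to 1310 CPM over the 12 libraries. Pou5f1, another such marker, was listed at only 4.53 to 10.9 CPM. Its reads can be shared with near-identical pseudogenes, and whether that lowered its level was not tested.

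The 6 genes did not share 1 course. Dab1, Stmn2 and Enox1 were lower in 2i than in primed cells, and at 50 µM Dab1 and Stmn2 overlapped the primed range, with Stmn2 mostly below it, and Enox1 stayed far below it. Ncam1 and Ntn1 were higher than in primed cells in all 3 six-day groups. Zdhhc15 was near the primed level in 2i and at 25 µM, and above it in all 3 libraries at 50 µM. As a description of values that chose the members, the 2i, 25 µM and 50 µM libraries of Dab1, Stmn2 and Ncam1 did not overlap. For Stmn2 the gap between 2i and 25 µM was narrow (265.2 and 265.5 CPM). The share of all genes that separate in this way was not counted. The 25 µM libraries of Ntn1, Enox1 and Zdhhc15 overlapped their 2i libraries.

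**Figure D1:**
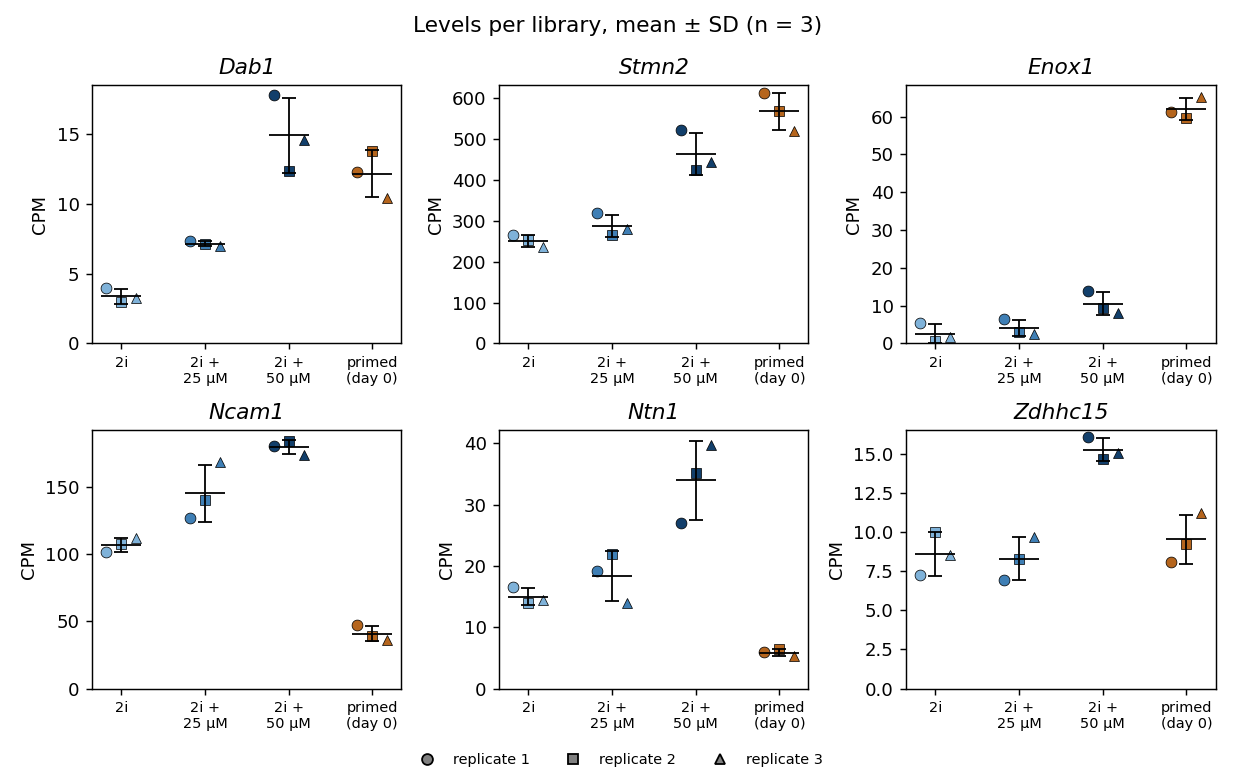
TMM-scaled CPM of each gene in every library (points) with the group mean and SD (n = 3), in 2i, 2i with 25 µM, 2i with 50 µM and primed cells; each panel has its own vertical axis. Dab1 at 50 µM (12.4 to 17.8 CPM) overlaps primed cells (10.4 to 13.8 CPM), Enox1 stays below 14 CPM in the six-day groups against 59.7 CPM or more in primed cells, and Ncam1 and Ntn1 lie above primed cells in all six-day libraries.

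Dab1 (ENSMUSG00000028519) spans chromosome 4, 103619359 to 104744844 on the plus strand of GRCm38. It had 3.99, 2.95 and 3.23 CPM in 2i, 7.37, 7.16 and 6.96 CPM at 25 µM, 17.8, 12.4 and 14.6 CPM at 50 µM, and 12.3, 13.8 and 10.4 CPM in primed cells. The 3 six-day groups were separate, and the 50 µM and primed groups overlapped. The mean level in 2i was 27.9% of the primed mean, at 25 µM 58.9% and at 50 µM 122.6%. Against primed cells the log2 change was -1.84 ± 0.21 in 2i (standard error, here and below; edgeR quasi-likelihood adjusted p = 4.16e-07) and -0.76 ± 0.19 at 25 µM (edgeR adjusted p = 0.00257). At 50 µM it was 0.29 ± 0.18, which did not pass (edgeR adjusted p = 0.192, and 0.0845 to 0.627 over 13 alternatives). The adaptor was thus lower than in primed cells in 2i and at 25 µM, and no difference from primed cells was detected at 50 µM. As a description, the 50 µM level was 2.13 above 2i on the log2 scale, and the 25 µM level 1.08 above 2i. In counts these were 101, 83 and 90 reads at 50 µM against 26, 20 and 20 in 2i.

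Other parts of the reelin pathway are given by genes named after their values were seen. Reln itself, the ligand, had 1 count over the 2i libraries, 2 at 25 µM, 3 at 50 µM and 6 in primed cells, too few to test. The receptor Vldlr averaged 1.48 CPM in 2i, 0.891 CPM at 25 µM, 0.69 CPM at 50 µM and 3.89 CPM in primed cells. Its log2 change against primed cells was -1.38 ± 0.37 in 2i (edgeR adjusted p = 0.00516) and -2.44 ± 0.43 at 50 µM (edgeR adjusted p = 9.03e-05). The other receptor, Lrp8, had a log2 change of -0.92 ± 0.25 in 2i (edgeR adjusted p = 0.00511) and -1.45 ± 0.27 at 50 µM (edgeR adjusted p = 0.000133) against primed cells. Fyn, a kinase that phosphorylates Dab1, averaged 10.2, 10.4 and 12 CPM in 2i, at 25 µM and at 50 µM, against 29.5 CPM in primed cells. Its log2 change against primed cells was -1.53 ± 0.16 in 2i (edgeR adjusted p = 9.45e-08) and -1.31 at 50 µM (edgeR adjusted p = 7.6e-07). Both receptors and Fyn were thus lower than primed cells in 2i, as Dab1 was, and also at 50 µM, where Dab1 overlapped the primed range. At 50 µM against 2i none of these 3 genes passed the test, with edgeR adjusted p of 0.159 for Vldlr, 0.227 for Lrp8 and 0.419 for Fyn. Of a list of 21 other reelin pathway genes, 20 were tested at 50 µM against 2i, with 0 higher and 2 lower and a median log2 change of -0.11. The 2 lower ones, Cul5 and Rnf7, belong to the ubiquitin ligase that degrades phosphorylated Dab1. Cul5 had a log2 change of -0.39 (edgeR adjusted p = 0.016) and Rnf7 one of -0.26 (edgeR adjusted p = 0.0329). The Cul5 call was lost without 2i replicate 1 or 50 µM replicate 3, and the Rnf7 call in 4 of the 6 fits that left out 1 library. In 2i both were above primed cells, with log2 changes of 0.39 for Cul5 (edgeR adjusted p = 0.00503) and 1.25 for Rnf7 (edgeR adjusted p = 7.37e-11). At 50 µM Rnf7 was still above primed cells (0.99, edgeR adjusted p = 3e-09), and Cul5 did not pass (edgeR adjusted p = 0.996). Over all 13230 genes at 50 µM against 2i, 7.01% were higher and 8.07% lower, with a median log2 change of 0.01. Against primed cells the same reelin list had 8 higher and 4 lower in 2i, with 20.0% of all genes higher and 20.4% lower. At 50 µM it had 5 higher and 5 lower, with 22.6% and 21.7%. Src and Yes1, other kinases of that list, were higher than primed cells. Their log2 changes were 0.79 and 0.93 in 2i (edgeR adjusted p = 0.000125 and 0.000128) and 0.965 and 0.81 at 50 µM (edgeR adjusted p = 1.04e-05 and 0.000523).

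Stmn2 (ENSMUSG00000027500) lies on chromosome 3, 8509360 to 8561606, plus strand. It had 265, 252 and 237 CPM in 2i, 318, 266 and 280 CPM at 25 µM, 523, 425 and 444 CPM at 50 µM, and 613, 569 and 521 CPM in primed cells. The 2i and 25 µM groups were separate by a narrow gap, 265.2 CPM being the highest in 2i and 265.5 CPM the lowest at 25 µM, the 50 µM libraries lay above both, and the 50 µM and primed groups overlapped. Against primed cells the log2 change was -1.17 ± 0.10 in 2i (edgeR adjusted p = 3.06e-09) and -0.98 ± 0.10 at 25 µM (edgeR adjusted p = 4.28e-08). At 50 µM it was -0.29 ± 0.10 (edgeR adjusted p = 0.0177, with a range of 0.000229 to 0.0997 over 13 alternatives). That last call was lost without primed replicate 1 (log2 change -0.23, edgeR adjusted p = 0.0857) and without 50 µM replicate 2 (log2 change -0.22, edgeR adjusted p = 0.0997). As a description, the 50 µM level was 0.88 above 2i on the log2 scale, and the 25 µM level 0.20 above 2i.

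Among other stathmins, Stmn1 averaged 9.06, 8.89 and 10.5 CPM in 2i, at 25 µM and at 50 µM, against 14.7 CPM in primed cells. Stmn3 averaged 4.55, 2.88 and 3.98 CPM in the same order, against 4.06 CPM in primed cells, and Stmn4 had 0, 2 and 0 counts per group against 35 counts in primed cells. These 3 were also named after their values were seen. A list of 16 stathmin and microtubule genes of neurons had 13 tested at 50 µM against 2i, with 3 higher, 0 lower and a median log2 change of 0.13. The 3 were Mapt, Dpysl2 and Crmp1, which encode the axonal protein tau and a pair of related proteins of growing axons. Mapt averaged 34.6 ± 0.144 CPM at 50 µM against 22.6 ± 0.926 CPM in 2i (SD, n = 3 each; log2 change 0.61 ± 0.12, edgeR adjusted p = 0.00124). That call held in each of the 6 fits that left out 1 library, whereas the Dpysl2 call was lost without 2i replicate 3 or 50 µM replicate 3, and the Crmp1 call in 5 of the 6. Mapt already averaged 33.6 CPM at 25 µM, and 50 µM against 25 µM did not pass (log2 change 0.04, edgeR adjusted p = 0.936). At 50 µM the means of Mapt, Dpysl2 and Crmp1 were 214.2%, 53.0% and 10.8% of their primed means. In 2i against primed cells the same list had 3 higher, 9 lower and a median log2 change of -0.87.

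Enox1 (ENSMUSG00000022012) spans chromosome 14, 77156763 to 77721760, plus strand, beginning at the end of the window printed above. It had 5.37, 0.737 and 1.61 CPM in 2i, 6.43, 3.09 and 2.56 CPM at 25 µM, 13.9, 9.40 and 8.10 CPM at 50 µM, and 61.1, 59.7 and 65.1 CPM in primed cells. In counts, 2i held 35, 5 and 10 reads, the 50 µM group 79, 63 and 50, and primed cells 393, 355 and 418. Every six-day library was far below every primed library, and the 2i and 25 µM groups overlapped. Against primed cells the log2 change was -4.58 ± 0.41 in 2i (edgeR adjusted p = 2.91e-06), -3.95 ± 0.38 at 25 µM (edgeR adjusted p = 5.58e-06) and -2.57 ± 0.33 at 50 µM (edgeR adjusted p = 6.48e-05). The mean at 50 µM was 16.9% of the primed mean, and in 2i it was 4.16%. The 2i value rested in part on replicate 1: without it the log2 change in 2i against primed cells was -5.71, and without replicate 1 in every group it was -5.72. In 2i and at 25 µM, Enox1 was the member farthest from its primed level. As a description, the 50 µM level was 2.01 above 2i on the log2 scale. Replicate 1 was the highest of its group in all 3 six-day groups for Enox1, and also for Dab1 and Stmn2. Without 2i replicate 1 the Enox1 difference between 50 µM and 2i was 3.12, and without replicate 1 in every group it was 2.88. Between 25 µM and 2i the difference was 0.64, and 1.75 without 2i replicate 1. The related oxidase Enox2 averaged 9.22, 9.28 and 14.2 CPM in 2i, at 25 µM and at 50 µM, and 12 CPM in primed cells. Its log2 change at 50 µM against 2i was 0.62 (edgeR adjusted p = 0.0197), a call lost in 4 of the 6 fits that left out 1 library. Of 10 listed genes for NADH and related oxidases, 6 were tested, with 1 higher (Enox2), 0 lower and a median log2 change of 0.19.

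Ncam1 (ENSMUSG00000039542) lies on chromosome 9, 49502136 to 49798925, minus strand. It had 101.5, 107.5 and 112 CPM in 2i, 127, 140 and 169 CPM at 25 µM, 180.4, 184 and 174 CPM at 50 µM, and 46.9, 39.0 and 36.5 CPM in primed cells. All 4 groups were separate, in the order primed, 2i, 25 µM and 50 µM. Against primed cells the log2 change was 1.39 ± 0.11 in 2i (edgeR adjusted p = 1.72e-09), 1.83 ± 0.11 at 25 µM (edgeR adjusted p = 1.95e-11) and 2.14 ± 0.11 at 50 µM (edgeR adjusted p = 2.13e-12). The adhesion molecule was therefore above its primed level already in 2i without inhibitor, and as a description the 50 µM level was a further 0.75 above 2i on the log2 scale (0.68 without replicate 1 in every group). Gm11149, an antisense gene that covers 2 of the annotated 3′ ends of Ncam1, had 0 counts in every library. Its paralog Ncam2 had 1, 0 and 0 counts over the 2i, 25 µM and 50 µM groups and 1 count in primed cells. The enzymes that add polysialic acid to Ncam1 were as scarce, with St8sia2 at 7, 0 and 1 counts and 5 in primed cells, and St8sia4 at 4, 1 and 8 counts and 7 in primed cells. Of 16 other adhesion genes of the NCAM and L1 families and their partners, 8 were tested at 50 µM against 2i, with 0 higher, 0 lower and a median log2 change of -0.04.

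Ntn1 (ENSMUSG00000020902) lies on chromosome 11, 68209364 to 68400823, minus strand. It had 16.6, 14.0 and 14.4 CPM in 2i, 19.1, 22 and 13.9 CPM at 25 µM, 27.0, 35.2 and 39.7 CPM at 50 µM, and 5.91, 6.39 and 5.30 CPM in primed cells. All six-day libraries were above all primed libraries, the 2i and 25 µM groups overlapped, and the 50 µM libraries were above both. Against primed cells the log2 change was 1.35 ± 0.21 in 2i (edgeR adjusted p = 1.45e-05), 1.64 ± 0.20 at 25 µM (edgeR adjusted p = 8.39e-07) and 2.53 ± 0.19 at 50 µM (edgeR adjusted p = 5.94e-10). The mean at 50 µM was 578.9% of the primed mean, and as a description the 50 µM level was 1.18 above 2i on the log2 scale.

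The netrin receptors, named after their values were seen, were at the floor or moved in different ways. Dcc had 11, 2 and 1 counts over the 2i, 25 µM and 50 µM groups and 9 in primed cells, where 3 counts over a group correspond to 0.15 to 0.16 CPM. Neo1, a receptor related to Dcc, averaged 35.4, 34.0 and 29.4 CPM in 2i, at 25 µM and at 50 µM, against 20.5 CPM in primed cells. Its log2 change against primed cells was 0.78 in 2i (edgeR adjusted p = 1.83e-05) and 0.52 at 50 µM (edgeR adjusted p = 0.00167). At 50 µM against 2i the Neo1 change was -0.27 and did not pass (edgeR adjusted p = 0.131). Unc5b averaged 52.1, 42.0 and 37.1 CPM in the same order, against 69.6 CPM in primed cells, with a log2 change at 50 µM of -0.90 ± 0.16 (edgeR adjusted p = 0.000111). Neo1 was thus higher and Unc5b lower than in primed cells at the dose where the ligand was highest. Of 19 listed netrin pathway genes, 9 were tested at 50 µM against 2i, with 1 higher, 1 lower and a median log2 change of 0.01. The higher one was Mcam, an adhesion molecule that has been described as a netrin-1 receptor, at 53.7 ± 5.83 CPM at 50 µM against 27.5 ± 1.58 CPM in 2i (SD, n = 3 each; log2 change 0.96 ± 0.13, edgeR adjusted p = 4.46e-05). It averaged 40.7 CPM at 25 µM and 69.5 CPM in primed cells, and the call held in each of the 6 fits that left out 1 library. The lower one was Unc5b, whose call at 50 µM against 2i (edgeR adjusted p = 0.0451) was lost in 5 of those 6.

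Zdhhc15 (ENSMUSG00000033906) lies on chromosome X, 104536969 to 104671064, minus strand, next to the window of 3 CpG printed above. It had 7.22, 10.02 and 8.55 CPM in 2i, 6.90, 8.30 and 9.66 CPM at 25 µM, 16.0, 14.6 and 15.1 CPM at 50 µM, and 8.08, 9.25 and 11.2 CPM in primed cells. The 2i, 25 µM and primed libraries overlapped, and all 3 libraries at 50 µM were above all of them. The log2 change against primed cells was -0.15 ± 0.19 in 2i (edgeR adjusted p = 0.58) and -0.20 ± 0.19 at 25 µM (edgeR adjusted p = 0.445), neither of which passed, and 0.68 ± 0.18 at 50 µM (edgeR adjusted p = 0.00406, with a range of 0.00102 to 0.0414 over 13 alternatives). As a description, the 50 µM level was 0.82 above 2i (0.65 without replicate 1 in every group) and 0.87 above 25 µM (0.71 without replicate 1) on the log2 scale, while the 25 µM level was 0.05 below 2i. Of 30 other genes for palmitoylation and its reversal, 26 were tested at 50 µM against 2i, with 5 higher, 1 lower and a median log2 change of 0.26. With the replicate number as a block, 8 were higher and 2 lower. Zdhhc4, another member of the acyltransferase family, averaged 44.4 ± 4.88 CPM at 50 µM against 30.2 ± 2.45 CPM in 2i (SD, n = 3 each; log2 change 0.55, edgeR adjusted p = 0.00306). Abhd17a, a depalmitoylating enzyme, had a log2 change of 0.54 (edgeR adjusted p = 0.00377). Both of these calls held in each of the 6 fits that left out 1 library, while the calls of Zdhhc18, Zdhhc8, Ppt2 and Zdhhc23 were each lost in 4 or 5 of them.

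**Figure D2:**
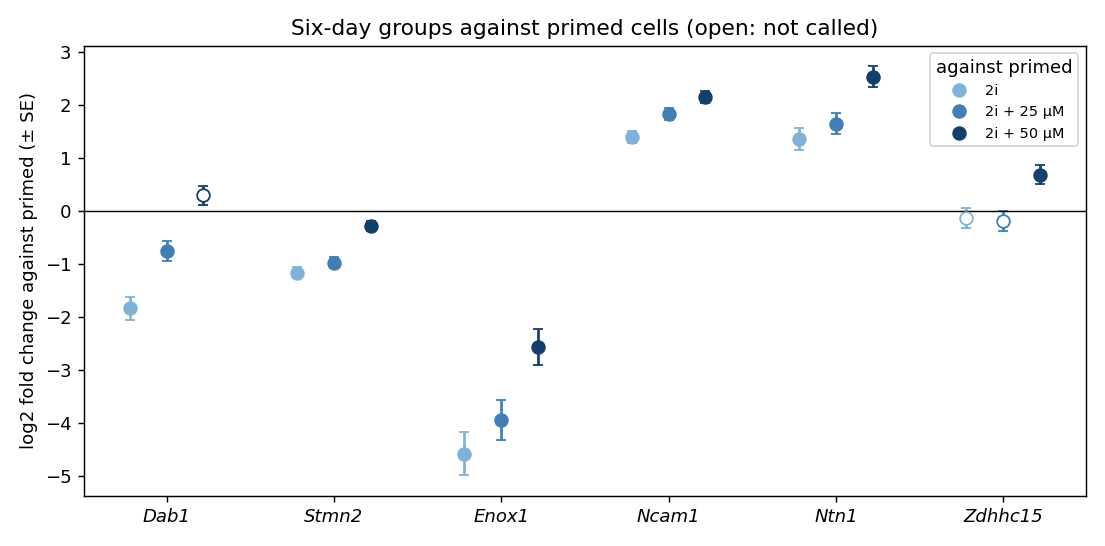
Log2 change of each gene against primed cells after 2i alone, 25 µM or 50 µM, with standard errors from the edgeR fit; filled points passed an adjusted p of 0.05 and open points did not. Enox1 runs between -4.58 in 2i and -2.57 at 50 µM, Ncam1 and Ntn1 lie above 0 throughout, and Dab1 crosses 0 at 50 µM.

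Counted over the members, 2 were higher (Ncam1 and Ntn1) and 3 lower (Dab1, Stmn2 and Enox1) in 2i than in primed cells, where 20.0% of all genes tested were higher and 20.4% lower. At 25 µM against primed cells the same 2 were higher and the same 3 lower, with 21.3% of all genes higher and 21.0% lower. At 50 µM 3 were higher (Ncam1, Ntn1 and Zdhhc15) and 2 lower (Stmn2 and Enox1), with 22.6% of all genes higher and 21.7% lower. The 50 µM libraries took part in the choice for high values and the 2i and 25 µM libraries for low values, so that only the 2 lower calls at 50 µM and the higher calls in 2i and at 25 µM go against the choice. The 3 comparisons share the primed libraries and are not independent of each other.

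The shape of the dose course, a description of values that chose the members, also differed among them. The fitted log2 step of 50 µM over 25 µM exceeded the step of 25 µM over 2i for Stmn2 (0.69 and 0.20), Ntn1 (0.90 and 0.29), Enox1 (1.38 and 0.64) and Zdhhc15 (0.87 and -0.05). For Enox1 this order turned without 2i replicate 1, where the lower step was 1.75. It also turned in the libraries of replicate 2 (1.51 and 1.70), and it held without replicate 1 in every group (1.62 and 1.25). The same pair of steps was close for Dab1 (1.05 and 1.08). For Ncam1 the steps were 0.30 and 0.44, and without 25 µM replicate 3 they were 0.44 and 0.31, so their order rested on that library.

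**Figure D3:**
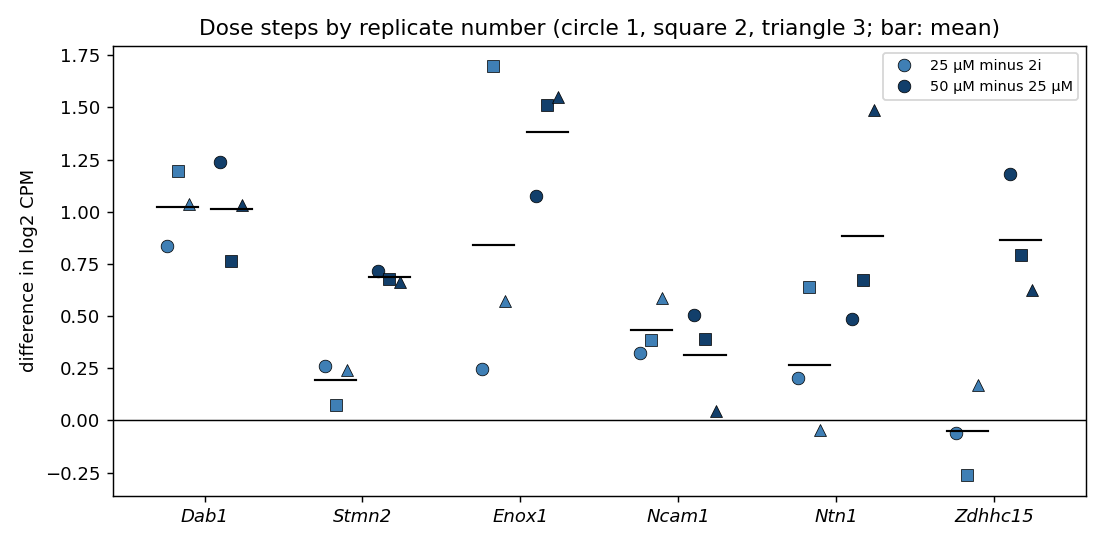
Difference in log2 CPM between libraries of the same replicate number for the steps 25 µM minus 2i and 50 µM minus 25 µM, with a bar at the mean of the 3 pairs. The values chose the members and carry no test; the upper step is above 0 in every pair, is 0.04 in replicate 3 of Ncam1, and lies above the lower step in all 3 pairs for Stmn2, Ntn1 and Zdhhc15.

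Measured by the root mean square difference of mean-centred log2 CPM over the 12 libraries, the most alike members were Ncam1 and Ntn1 (0.34) and then Dab1 and Stmn2 (0.44). Enox1 stood farthest from the others, at 2.5 from both Ncam1 and Ntn1. The same measure over 9820 genes named those nearest to each member. For Dab1 these were Rnf165 (0.34) and Thap2 (0.36), for Stmn2 F2rl1 (0.16) and Ext1 (0.18), for Ncam1 Commd3 (0.17) and Pros1 (0.19), for Ntn1 Bmi1 and Pdgfa (both 0.34), for Enox1 Trh (0.59) and Foxp1 (0.76), and for Zdhhc15 Tia1 and Rmnd1 (both 0.23). Those nearest to the mean of the 6 profiles were Eif4g3 (0.22), Zfp988 (0.23), Pipox (0.23), Gpa33 (0.24) and Zfp948 (0.25), of which 0 were shared when group means were used in place of libraries. Enox1 had the least close neighbours of the 6.

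Other neural genes moved in both directions. Of 50 listed markers of neurons and neural progenitors, without the members, 29 were tested at 50 µM against 2i, with 3 higher, 5 lower and a median log2 change of -0.06. The 8 calls became 4 without 2i replicate 2, 4 without 2i replicate 3, 4 without 50 µM replicate 1, and 5 without replicate 1 in every group. Only 2 markers held their call in each of the 6 fits that left out 1 library, both lower. Nefm, a neurofilament subunit, averaged 6.13 ± 2.44 CPM at 50 µM against 16.7 ± 2.36 CPM in 2i (SD, n = 3 each; log2 change -1.42 ± 0.30, edgeR adjusted p = 0.00398). Thy1, a surface protein of neurons that is also a fibroblast marker, had 2, 1 and 2 counts at 50 µM against 28, 34 and 31 in 2i (log2 change -4.05 ± 0.43, edgeR adjusted p = 2.58e-06). The higher markers were Sox1, Ina and Elavl3, whose calls were lost in 3, 1 and 5 of the 6 fits.

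The summed level of the 30 neuron markers was 798.8 to 864 CPM in 2i, 797.9 to 858.1 CPM at 25 µM, 807.4 to 822.6 CPM at 50 µM and 1242 to 1349 CPM in primed cells. That of the 20 neural progenitor markers was 51.8 to 68.4 CPM in 2i, 56.0 to 62.8 CPM at 25 µM, 54.6 to 68.6 CPM at 50 µM and 47.2 to 56.9 CPM in primed cells. The 50 µM range thus lay within or overlapped the 2i range for both lists. At 50 µM, Gria2, Rbfox3, Scg2 and Slc17a6 of the neuron list and, among others, Fabp7 and Neurog2 of the progenitor list had 0 counts in all 3 libraries, Snap25 had 3 counts in all, and Dcx had 0 counts in every library of the study. In 2i, 6 neuron markers had 0 counts, against 4 at 50 µM. Other neuron genes were detected, with Syn1 at 4.57 to 8.57 CPM and Tubb3 at 52.5 to 96.9 CPM over the 12 libraries. The part of neuron-like cells in the levels of the 6 genes was not tested. REST and its corepressors keep neuronal genes silent outside neurons. A list of these and other genes linked to REST had 18 tested at 50 µM against 2i. Of them 2 were higher and 4 lower, with a median log2 change of -0.05. Rest itself did not pass (log2 change -0.12, edgeR adjusted p = 0.45). Sin3b, a scaffold of corepressor complexes, was lower (log2 change -0.43, edgeR adjusted p = 0.00147) and Ctdsp1, a phosphatase that acts with REST, was higher (log2 change 0.75, edgeR adjusted p = 0.00314), both in each of the 6 fits that left out 1 library. Btrc, a lower call that is not a corepressor (log2 change -0.41, edgeR adjusted p = 0.0481), was lost in 5 of the 6.

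Markers of other cell types give the setting. At 50 µM against 2i, 12 pluripotency genes had 2 higher, 1 lower and a median log2 change of 0.09, and their sum was 5515 to 5795 CPM at 50 µM against 5147 to 5604 CPM in 2i. Of the mesoderm list 6 were tested, with 1 higher: Bmp4, a signalling ligand, at 172.3 ± 40.1 CPM at 50 µM against 42.5 ± 7.50 CPM in 2i (SD, n = 3 each; log2 change 2.02, edgeR adjusted p = 6.42e-05). Of the endoderm list 3 were tested with 1 lower, of the trophoblast list 8 with 3 lower, and of the fibroblast list 8 with 3 lower, Thy1 and Col1a1 among them. When 1 library was left out, the lower calls ran from 0 to 1 for endoderm and 0 to 3 for trophoblast and the higher pluripotency calls from 0 to 2, while Bmp4, Thy1 and Col1a1 were called in each of the 6 fits. With the replicate number as a block, 3 pluripotency genes were higher and 2 lower, and 2 mesoderm genes were higher. In the same fit 2 endoderm, 4 trophoblast and 3 fibroblast genes were lower. The mesoderm sum was 172.4 to 244.2 CPM at 50 µM against 64.4 to 76.8 CPM in 2i, with 25 µM between them at 101.7 to 129.4 CPM. Most of the 50 µM sum was Bmp4, at 141.5 to 217.6 CPM against 34.8 to 49.8 CPM in 2i. At 50 µM, 5 genes of the mesoderm list (Meox1, Mesp1, Msgn1, T and Tbx6) had 0 counts, against 1 (Msgn1) in 2i. The endoderm sum was 26.4 to 37.1 CPM at 50 µM against 51.4 to 83.7 CPM in 2i, with 35.8 to 39.8 CPM at 25 µM. The fibroblast sum was 537.3 to 629.9 CPM at 50 µM against 561.5 to 602.6 CPM in 2i, and the trophoblast sum 89.5 to 123.5 CPM at 50 µM against 137 to 188.7 CPM in 2i. The part of these cell types in the levels of the 6 genes was not tested.

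**Figure D4:**
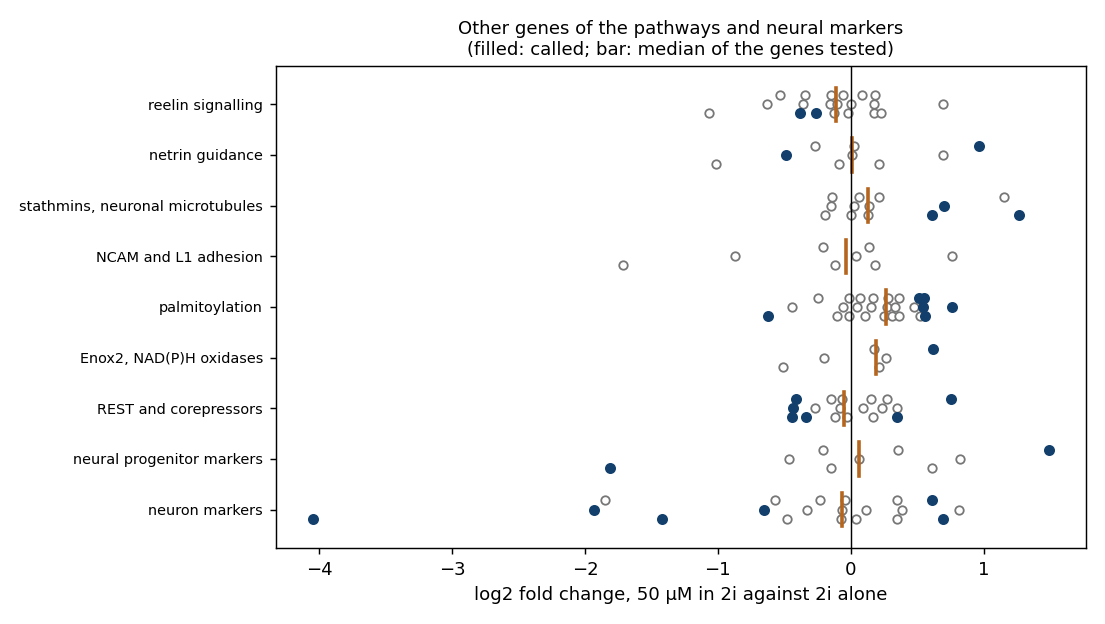
Log2 change (horizontal axis) at 50 µM against 2i for each tested gene of the lists named on the vertical axis, which leave out the 6 members; filled points passed an edgeR adjusted p of 0.05, open points did not, and bars are medians. The medians lie between -0.11 (reelin pathway) and 0.26 (palmitoylation) for the pathway lists, and at -0.07 for neuron markers and 0.06 for neural progenitor markers.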

How the data were processed

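Gene expression was measured in 12 libraries of R1 cells, 3 in each of 4 groups, prepared from total RNA with the QuantSeq 3′ mRNA kit (FWD, oligo-dT priming), per the labels' protocols. The authors deposited 1 table of raw counts per gene for each library, and the submitters' processing notes list FastQC, STAR, DESeq2 1.32.0 and build GRCm38 (mm10). Neither the counting tool and annotation nor the strand setting is given in the sources used here. Each table held 56805 features, 114 of them spike-in features with 2 counts in all, which were left out, and 52073 of the 56691 mouse gene IDs had a symbol in the reference name table.

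All 12 libraries were fitted together in edgeR 4.0.16 (R 4.3.3) with TMM factors, filterByExpr and the robust quasi-likelihood F test, and p-values were adjusted by Benjamini-Hochberg over 13230 genes, with calls at 0.05. Standard errors are the log2 change divided by the square root of F. log2 CPM values used a prior count of 2, and a floor of 3 counts corresponds to 0.43 to 0.53 CPM per library, which covers counting error only. The members, lists and tests were chosen with earlier results of these data known. The named genes are the 6 members, up to 3 genes with the smallest p at 50 µM against 2i in each list, and the nearest genes by root mean square difference among genes whose mean log2 CPM reached 2; any others named were picked after their values were seen. Alternatives were DESeq2 1.42.0, limma 3.58.1 (voom), no filter, fits of the compared groups alone, each library left out, a replicate block, and, chosen after seeing the data, replicate 1 left out of every group. Deviations of libraries with the same replicate number correlated at 0.141 to 0.582 in 15 pairs of 5 comparisons, so the numbers were taken to pair the libraries there, and at -0.0609 to 0.317 in the 3 pairs of 25 µM and primed cells, where they were not. The main fit and the fits that left out 1 library held no term for replicate number. Their p-values therefore ignore this pairing, and only the replicate block uses it. The fit was tested on simulated counts.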

Additional observations from a re-analysis of the deposited data

How the results depend on the processing

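Of 234 tested member values under the alternatives, 232 kept their direction and their side of the threshold and 2 kept the direction only, both for Stmn2 at 50 µM against primed cells. The count of members called was 5 in 2i, 5 at 25 µM and 5 at 50 µM against primed cells, and leaving out 1 library gave 4 to 5 at 50 µM. The replicate block changed no call of a member, and with it 9 of the 29 neuron and neural progenitor markers were called at 50 µM against 2i, 4 higher and 5 lower, in place of 8. That count was 4 to 7 when 1 library was left out and 5 without replicate 1 in every group, an alternative chosen after seeing the data. Of 234 untested member values, 227 moved by less than the spread between replicates, 5 moved by more and 2 changed sign. Both of these were Zdhhc15 at 25 µM against 2i, which was 0.0681 on the log2 scale without 2i replicate 2 and 0.0634 without 25 µM replicate 1, and ran from -0.19 to 0.0681 over all left-out libraries. The cause was not tested. Depth limits the low values, such as those of Enox1 in 2i, where libraries held 35, 5 and 10 counts.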
